A study of Sus scrofa with 6 samples.

Results

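De novo lipogenesis is the pathway that turns acetyl-CoA into long-chain fatty acids in the cytosol. Its enzymes and regulators were taken here as 10 genes, chosen by symbol: SLC25A1, ACLY, ACSS2, ME1, ACACA, ACACB and FASN, which supply or use the carbon and the reducing power, and THRSP, MLXIPL and SREBF1, which regulate them. All 10 were found among the 17109 genes of the deposited table, and all 10 had enough counts to be tested. The data are RNA-seq libraries, 1 for each animal, from livers of overnight-fasted Bama minipigs, namely 3 ASGR1+/- pigs (S03, S04 and S05) and 3 wild type (WT) pigs (WT1, WT2 and WT3), which served as controls. The ASGR1+/- animals carry, on 1 allele, a CRISPR/Cas9 deletion across an intron and exon boundary of ASGR1, the major subunit of the asialoglycoprotein receptor, and the line goes back to cloned founders made from edited fetal fibroblasts by nuclear transfer. The study gives an age range over all its pigs and keeps the animals of a single experiment close in age, but names no age for these livers, and the labels name no treatment other than the genotype. S03 was left out by the study after a principal-component analysis, so S04 and S05 were compared with the 3 WT livers, and S03 was shown apart and then added back.

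Fatty acid synthesis begins when the citrate carrier encoded by SLC25A1 brings citrate out of the mitochondrion and ATP citrate lyase (ACLY) splits it to acetyl-CoA. ACSS2 makes acetyl-CoA from acetate, the acetyl-CoA carboxylases ACACA and ACACB make malonyl-CoA, and fatty acid synthase (FASN) joins the units with NADPH that malic enzyme (ME1) helps to supply. Insulin acts on these genes through the SREBP transcription factor of SREBF1 and glucose acts through ChREBP, the product of MLXIPL, and the pathway is known to be low in fasting. In pigs, adipose tissue rather than liver is known as its main site.

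The libraries held 15397768 to 16237732 estimated counts each, so depth differed little between them. ASGR1 itself, the edited gene, measured 370 TPM (a level corrected for gene length and scaled to a fixed sum per library) in S04, 367 in S05, 485 in S03 and 416, 452 and 305 in the 3 WT livers. These overlapped (edgeR adjusted p = 0.652 for S04 and S05 against WT). A count over the whole gene does not check for a short deletion, so the genotypes of these libraries rest on the labels. The paper reports genotyping of the line by sequencing and less ASGR1 protein in ASGR1+/- livers, without matching those animals to the libraries. Hepatocyte markers (12 of 12 listed genes found) summed to between 47823 and 57289 TPM in S04 and S05, 69184 in S03 and between 73924 and 138432 in WT, and were the most abundant of the 9 marker lists in every library. S03 stood apart in several further sums. Chromosome Y genes summed to 22.1 TPM there, against 327 to 468 in the other 5 libraries (the study describes its pigs as male but for 1 offspring, which the labels do not match to a library), and erythroid markers to 5226 TPM, against 18.1 and 110 in S04 and S05 and 455 to 1220 in WT. Endothelial markers summed to 452 TPM in S03 and 135 to 231 in the others, and stellate cell markers to 400.5 TPM in S03 and 83.2 to 268 in the others. Between S04 and S05 and WT, the hepatocyte and erythroid sums above did not overlap, both being lower in S04 and S05. S03 was below every WT liver for hepatocyte markers and above every WT liver for erythroid markers. Neutrophil markers did not overlap either, at 427 and 558 TPM against 134 to 286 (225 in S03). Cholangiocyte markers, at 175 and 215 TPM against 71.3 to 158 (152 in S03), also did not. Macrophage markers summed to 1913 and 2338 TPM against 1915 to 3894 (1780 in S03), and lymphocyte markers to 76.9 and 53.1 TPM against 62.8 to 183 (134 in S03). By edgeR without S03, 1 of 8 lymphocyte markers tested was called lower and 1 of 7 neutrophil markers higher. No marker of the other lists was called, beside 0.791% of all 13401 genes tested. Several of these sums moved with the groups or with S03, and their part in the values that follow was not tested. In whole liver, fewer cells of a type and less RNA per cell cannot be told apart.

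None of the 10 genes passed the test in S04 and S05 against WT, in which a gene was called at an adjusted p of 0.05 or less by the quasi-likelihood test of edgeR. Among all 13401 genes tested, 106 were called, which is 0.791%, a share that would itself leave few calls among 10 genes. With S03 added, again none of the 10 was called, beside 18 of 13243 genes, or 0.136%. At an unadjusted p under 0.05, SLC25A1 and ACACA were lower in S04 and S05 and ACLY was higher (background 12% of genes lower and 8.89% higher). With all 6 libraries ACACA, FASN and ACSS2 were lower and ACLY was higher by that measure (background 9.45% lower and 6.67% higher). DESeq2, the tool of the study, called SLC25A1 lower without S03, where it called 6.3% of the genes it tested lower. With S03 it called ACACA and FASN lower, beside 3.91% of genes. Of the 10 log2 fold changes, 6 were negative and 4 positive in both comparisons. Their median was -0.40 without S03 and -0.37 with it, against 0.0031 and 0.023 for all genes.

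**Figure D1:**
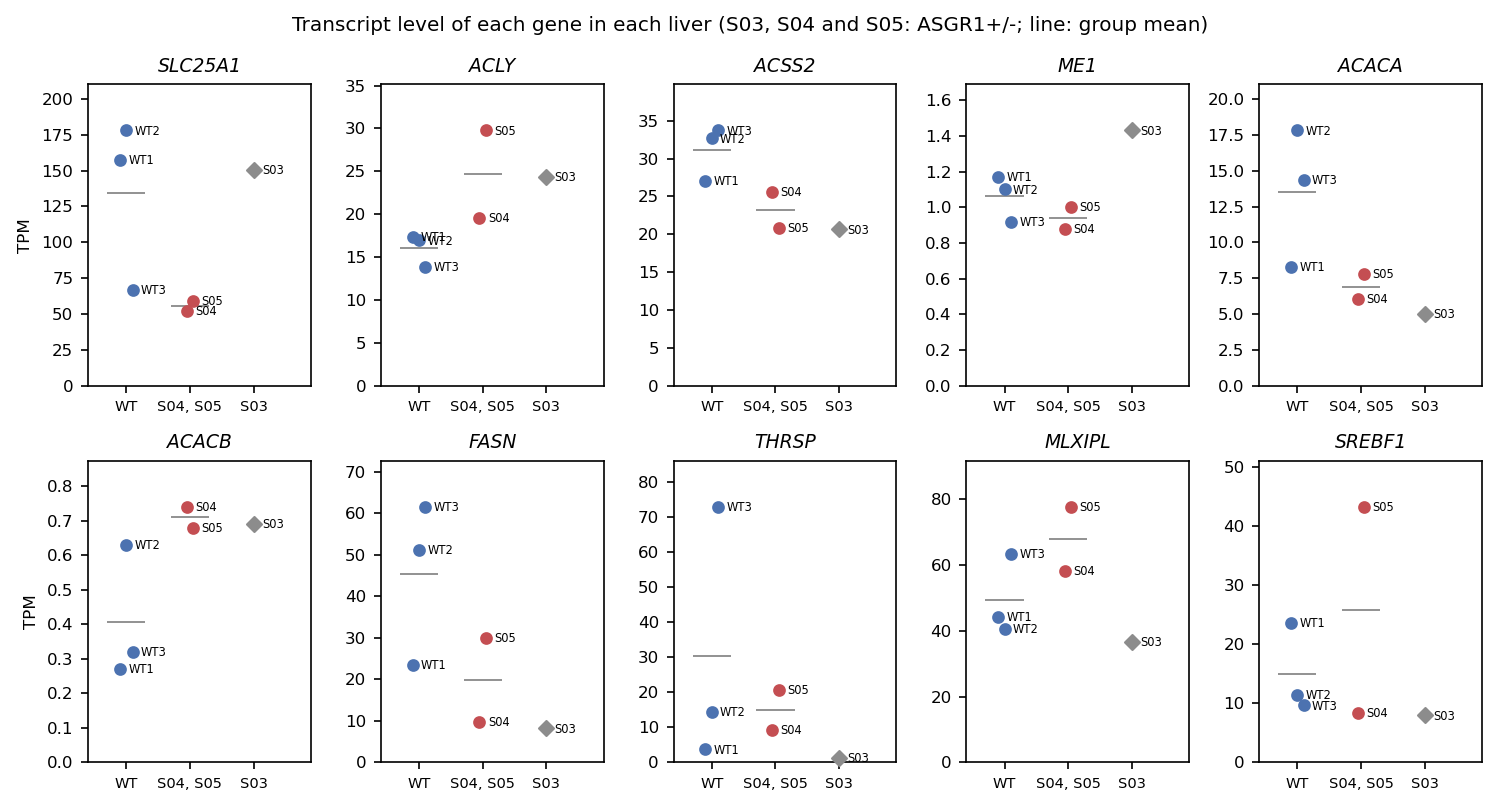
Level of each of the 10 genes in TPM (vertical axis, linear from 0, a scale of its own per panel) in each liver, with WT in blue, S04 and S05 in red and S03 as a grey diamond, and a line at the mean of each group. SLC25A1 in S04 and S05 lies below all WT livers while S03 does not, ACLY in all 3 ASGR1+/- livers lies above all WT livers, and SREBF1 in S05 and THRSP in WT3 stand far from the rest of their groups.

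SLC25A1, the citrate carrier, had the highest mean of the 10 in WT livers, with 157 TPM in WT1, 178 in WT2 and 67.1 in WT3. It measured 52.4 TPM in S04 and 59.4 in S05. Both lay below every WT liver, although WT3 was closer to them than to the other WT livers, and S03, at 150.5 TPM, lay among the WT values. On the log2 scale the fold change was -1.33 without S03 (standard error 0.35, 95% interval -2.15 to -0.50, adjusted p = 0.107, edgeR). With S03 it was -0.77 (adjusted p = 0.434). By DESeq2 the adjusted p was 0.0069 without S03 and 0.38 with it. Without WT3 edgeR also called SLC25A1 (log2 fold change -1.60, adjusted p = 0.0428). The DESeq2 call was lost without WT2 (adjusted p = 0.08) and held without WT1 (0.0328) or WT3 (9.5e-08). Without S04 or S05, which leaves 1 ASGR1+/- library, the DESeq2 log2 fold change was -1.28 and -1.36. In the build Sscrofa11.1, SLC25A1 (gene ID 100154310) spans positions 50974616 to 51002970 of chromosome 14.

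ACLY, the enzyme that uses the exported citrate, reached 19.6 TPM in S04 and 29.8 in S05. The WT livers held 17.4, 17 and 13.9 TPM. S03, at 24.3 TPM, was also above all of them, so ACLY was higher in every ASGR1+/- liver than in every WT liver. The size of the difference was small, a log2 fold change of 0.52 (95% interval 0.061 to 0.97, adjusted p = 0.194, edgeR), and 0.46 with S03 (adjusted p = 0.253). Together with SLC25A1 this set the carrier and the enzyme on different sides. The ratio of their TPM, chosen after the values were seen, was 2.67 in S04 and 2 in S05, against 9.05, 10.5 and 4.83 in WT1, WT2 and WT3 and 6.19 in S03.

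ACSS2, the cytosolic acetyl-CoA synthetase that activates acetate, was at 25.6 TPM in S04, 20.8 in S05 and 20.6 in S03. All 3 were under the WT values of 27.1, 32.7 and 33.7 TPM. Its log2 fold change was -0.53 (95% interval -1.11 to 0.043, adjusted p = 0.271, edgeR) and -0.64 with S03 (95% interval -1.15 to -0.12, adjusted p = 0.226). On counts scaled by TMM factors, a correction for library composition, the groups overlapped. ME1, cytosolic malic enzyme, was close to the lower end of what these libraries can measure, with 34 to 52 counts per library. Its level was 0.88 TPM in S04, 1 in S05 and 1.43 in S03, and 1.17, 1.1 and 0.92 in WT. Its log2 fold change was -0.27 (95% interval -1.03 to 0.48, adjusted p = 0.662, edgeR), an interval that takes in a halving as well as no change.

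ACACA, the carboxylase that makes the malonyl-CoA used for synthesis, was at 6.07 TPM in S04, 7.78 in S05 and 5.02 in S03. WT1 held 8.28 TPM, WT2 17.8 and WT3 14.4. Every ASGR1+/- liver was below every WT liver, but WT1 was nearer to S05 than to the other WT livers. Without S03 the log2 fold change was -1.08 (standard error 0.38, 95% interval -1.97 to -0.19, adjusted p = 0.173, edgeR). With S03 it was -1.27 (95% interval -2.08 to -0.46, adjusted p = 0.151). The DESeq2 adjusted p was 0.0571 without S03 and 0.0163 with it. When S03 was left out and 1 WT liver too, it was 1.6e-05 without WT1 (log2 fold change -1.38), 0.31 without WT2 and 0.15 without WT3. WT1 held the lowest WT level, so leaving it out widened the difference. ACACA (gene ID 397324) spans positions 38580916 to 38875067 of chromosome 12.

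ACACB encodes the carboxylase at the outer mitochondrial membrane, whose malonyl-CoA is known to restrain the entry of fatty acids into mitochondria. It was the least abundant of the 10, at 0.74 TPM in S04, 0.68 in S05 and 0.69 in S03, and 0.27, 0.63 and 0.32 in WT. The ASGR1+/- values all lay above WT in TPM, but on TMM-scaled counts both S05 and S03 fell under WT2. The counts behind them were few. WT1 held 25 (95% exact Poisson interval 16.2 to 36.9, counting error only) and S04 held 73 (57.2 to 91.8), while WT2, with 56 (42.3 to 72.7), could not be told from S05 with 62 (47.5 to 79.5). The log2 fold change was 0.71 (95% interval -0.33 to 1.75, adjusted p = 0.409, edgeR). ACACA and ACACB are paralogs, and how reads shared by them were counted is not given in the sources used here.

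Setting these carboxylases against each other within a library removes its scaling. ACACB was at 12.2% of the TPM of ACACA in S04, 8.74% in S05 and 13.8% in S03, and at 3.26%, 3.54% and 2.23% in WT1, WT2 and WT3. The ranges did not overlap, with or without S03. In every library ACACA remained the more abundant by far. No test was made on this ratio.

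Over the 10 genes, S04 and S05 lay outside the WT range in TPM on the same side for 5. SLC25A1, ACSS2 and ACACA lay below (background 14.4% of genes) and ACLY and ACACB above (background 23.1%). With S03, 2 remained below, ACSS2 and ACACA (background 6.49%), and the same 2 above (background 17.4%). On TMM-scaled counts the set differed. Without S03, SLC25A1, ME1 and ACACA lay below (background 20.1%) and ACLY above (background 19%), and with S03 ACACA alone lay below (background 11.8%) and ACLY alone above (background 9.94%).

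FASN, the multi-domain enzyme that builds palmitate, was at 9.83 TPM in S04 and 30.0 in S05. WT1 held 23.4 TPM, WT2 51.1 and WT3 61.5, and S03 held the lowest level of the 6, 8.2 TPM. The groups overlapped, because S05 exceeded WT1. Its log2 fold change was -1.36 (standard error 0.61, 95% interval -2.80 to 0.079, adjusted p = 0.263, edgeR), and -1.70 with S03 (95% interval -3.11 to -0.29, adjusted p = 0.234). By DESeq2 the adjusted p was 0.102 without S03 and 0.0392 with it. Single livers moved the value. Without S04 it was -0.79 and without S05 -2.30 by edgeR, each on 1 ASGR1+/- library. When S03 was left out and 1 WT liver too, the DESeq2 adjusted p was 0.0059 without WT1, the lowest WT liver. It was 0.26 without WT2 and 0.69 without WT3. S04 and S05 differed 3.05-fold from each other and the WT livers 2.62-fold. FASN (gene ID 397561) spans positions 922405 to 937560 of chromosome 12.

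**Figure D2:**
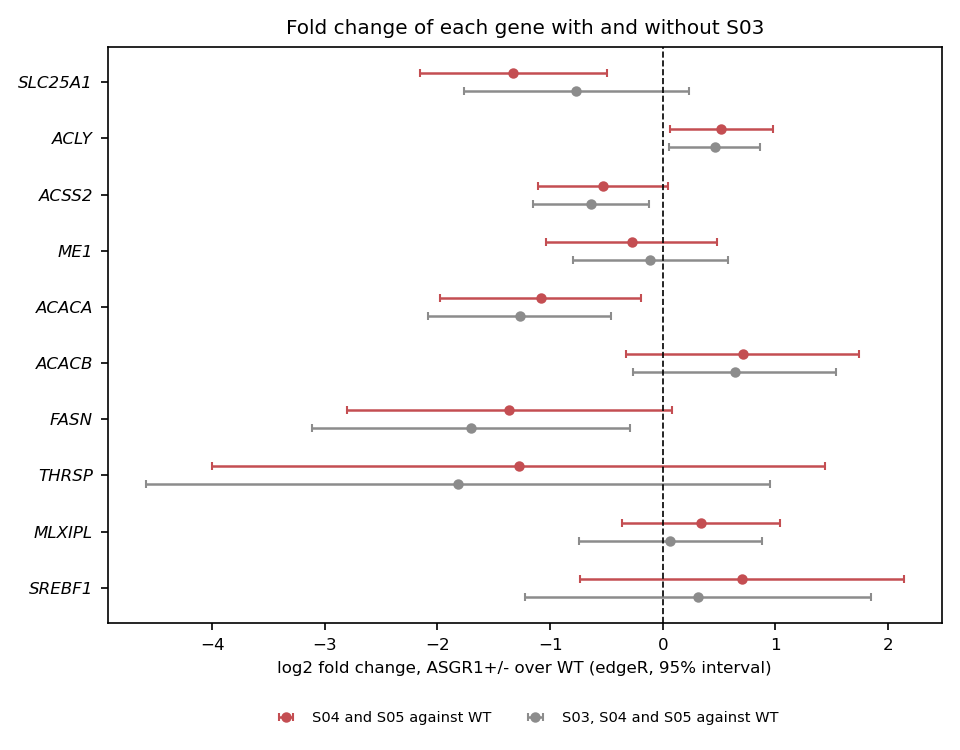
Log2 fold change of ASGR1+/- over WT for each gene from edgeR, with its 95% interval (horizontal bars), for S04 and S05 (red) and with S03 added (grey). The intervals of SLC25A1, ACACA and ACLY leave out 0 without S03, those of ACSS2, FASN, ACACA and ACLY do with it, and the interval of THRSP is the widest, from -4.00 to 1.44 without S03.

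THRSP encodes a nuclear protein that, in rodent liver, responds to thyroid hormone and carbohydrate and promotes lipogenesis. It varied more than any other of the 10, over 59.7-fold between libraries, with 9.15 TPM in S04, 20.7 in S05 and 1.22 in S03. WT1 held 3.72 TPM, WT2 14.4 and WT3 72.8, so both ASGR1+/- livers lay inside the WT range. These stood on 10 counts in S03 (95% exact Poisson interval 4.8 to 18.4) and 633 in WT3 (585 to 684), so counting error was small beside the difference between livers. Its log2 fold change was -1.28 (95% interval -4.00 to 1.44, adjusted p = 0.569, edgeR). Without WT3 its sign turned, to 0.65 (adjusted p = 0.649).

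MLXIPL, which encodes the glucose-responsive factor ChREBP, was at 58.1 TPM in S04, 77.5 in S05 and 36.7 in S03. The WT livers held 44.2, 40.4 and 63.2 TPM. S04 lay between WT1 and WT3, and the log2 fold change was 0.34 (95% interval -0.37 to 1.04, adjusted p = 0.56, edgeR) and 0.068 with S03 (adjusted p = 0.945). The interval without S03 takes in no change, a doubling and a moderate decrease.

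SREBF1 was at 8.33 TPM in S04 and 43.3 in S05, a 5.19-fold difference between animals of 1 genotype. WT1 held 23.7 TPM, WT2 11.4, WT3 9.65 and S03 7.96. S05 was the highest of the 6 and S04 lower than every WT liver. The log2 fold change was 0.70 (95% interval -0.73 to 2.14, adjusted p = 0.552, edgeR). It was -0.83 without S05 and 1.43 without S04, each on 1 ASGR1+/- library, so a single library decided the direction. SREBF1 yields more than one isoform, and a gene-level count does not separate them.

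The order of the mean levels in TPM differed between the groups. Among WT livers, the means were 134 ± 58.9 (SD, n = 3) for SLC25A1, 49.3 ± 12.3 for MLXIPL, 45.4 ± 19.7 for FASN, 31.2 ± 3.55 for ACSS2 and 30.3 ± 37.2 for THRSP. ACLY followed at 16.1 ± 1.89, SREBF1 at 14.9 ± 7.63 and ACACA at 13.5 ± 4.82, and these neighbours overlapped in range, as did MLXIPL with FASN, and FASN and THRSP with ACSS2. ME1 at 1.06 ± 0.13 and ACACB at 0.41 ± 0.20 were lowest and did not overlap. SLC25A1 exceeded MLXIPL in each WT liver and in S03, narrowly in WT3, while MLXIPL exceeded SLC25A1 in both S04 and S05. ACACA, ME1 and ACACB were the 3 lowest in S04, in S05 and by WT mean. ACACA was not among the 3 lowest in any single WT liver. THRSP was below it in WT1 (3.72 against 8.28 TPM). SREBF1 was below it in WT2 (11.4 against 17.8) and WT3 (9.65 against 14.4). The 10 genes together made up 191 TPM in S04, 291 in S05, 257 in S03 and 306, 364 and 338 in WT. Leaving out SLC25A1, they made up 138 TPM in S04, 232 in S05, 106 in S03 and 149, 186 and 270 in WT, so S04 and S05 then overlapped with WT.

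**Figure D3:**
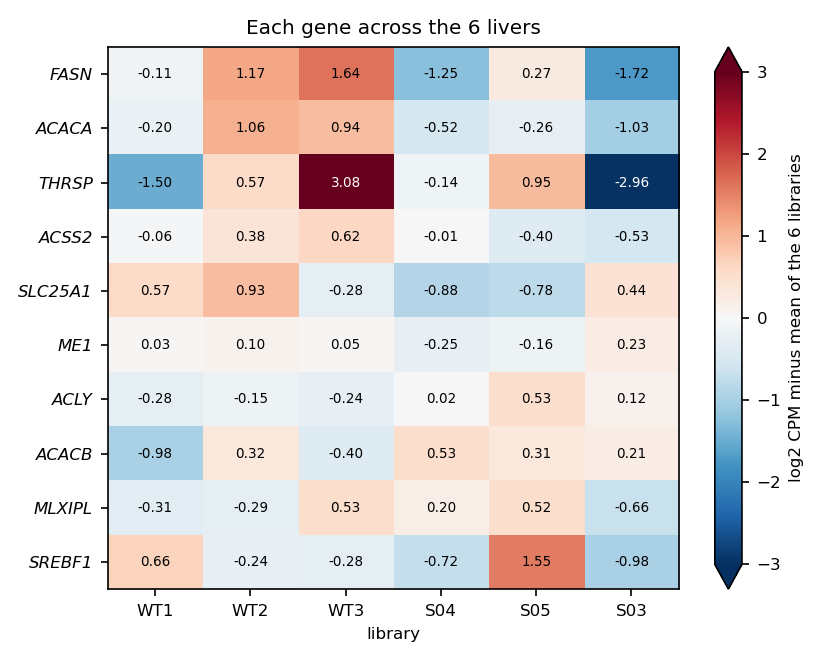
Log2 CPM (counts relative to library size after TMM scaling) of each gene in each library, minus the mean of the 6 libraries, with blue below and red above that mean. FASN, ACACA and THRSP are lowest in S03 and high in WT2 and WT3, SLC25A1 is lowest in S04 and S05, and SREBF1 is highest in S05.

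The genes did not follow one pattern across livers. S03 held the lowest TPM of the 6 libraries for 6 of the 10, ACSS2, ACACA, FASN, THRSP, MLXIPL and SREBF1, where 6.04% of all genes were lowest in S03, and it held the highest for ME1. Likeness between genes was measured as the root mean square difference of their log2 CPM over the 6 libraries, each centred on its own mean. By this measure the nearest of the other 9 to FASN was ACACA (0.55 log2 units), and 19 of 13243 genes came nearer. The nearest to THRSP was FASN (1.13), with 15 genes nearer, and the nearest to SREBF1 was MLXIPL (0.77), with 1723 nearer. The measure is not scaled for how widely a gene varies, and the number of nearer genes depends on that as well. ME1, which varied little among WT livers, had ACLY nearest (0.36), with 7178 genes nearer. These numbers therefore do not show which genes vary together. Over all genes, those most like FASN were LOC110260610 (0.41), RXFP3 (0.43), LOC100624435 (0.44), C3H2orf16 (0.48) and SLC22A7 (0.48), a hepatic organic anion transporter that ran from 29.6 TPM in S03 to 304 in WT3. All but SLC22A7 and LOC100624435 were under 1 TPM in every library. Those most like SREBF1 were THBS3 (0.31), GRAMD1B (0.34), which encodes a sterol transfer protein, and SMPDL3A (0.35), a phosphodiesterase at 24.9 TPM in S05 and 28.5 in WT1, and 6.89 to 13.1 in the others.

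Spread between WT livers was large for most of the 10. The range of log2 CPM over WT1, WT2 and WT3 was 4.58 for THRSP, wider than in 99.9% of 13243 genes, and 1.75 for FASN (percentile 96.1). ACACB (1.31), ACACA (1.26), SLC25A1 (1.21), SREBF1 (0.94), MLXIPL (0.84) and ACSS2 (0.68) also exceeded the median range of 0.45. ACLY and ME1 did not, at 0.13 and 0.070. ACLY thus varied little among WT livers (percentile 7.43).

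**Figure D4:**
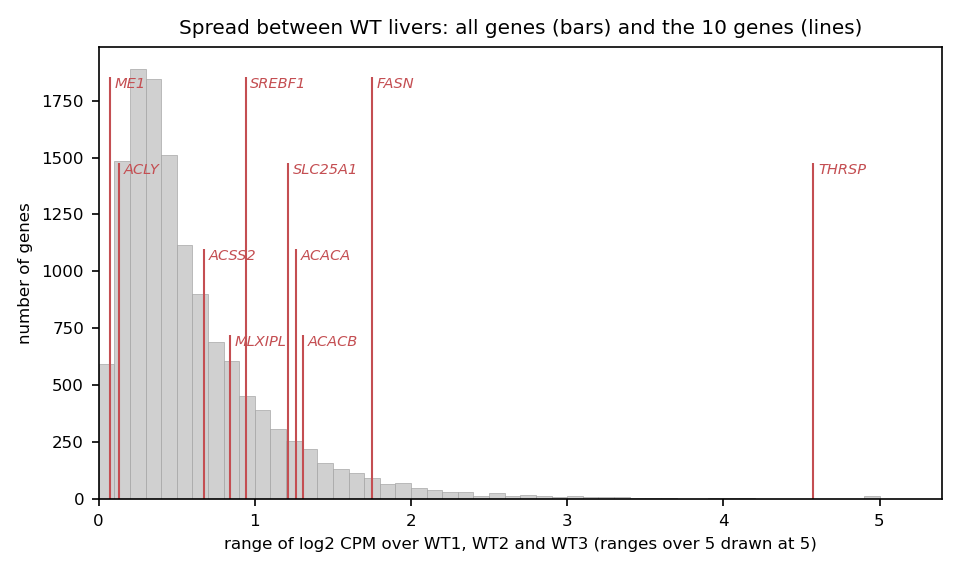
Range of log2 CPM over the 3 WT livers (horizontal axis) for all 13243 genes tested in the 6 libraries (grey bars, number of genes), with a red line at the range of each of the 10 genes. THRSP at 4.58 and FASN at 1.75 lie in the upper tail, and ME1 and ACLY at 0.070 and 0.13 at the lower end.

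ACLY, ACACA, FASN and SREBF1 lie on chromosome 12, as ASGR1 does (52536738 to 52540636), and 6.04% of the genes tested are on that chromosome. SREBF1 is 8.19 megabases from ASGR1, ACACA 13.7, ACLY 31.7 and FASN 51.6.

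Around the 10 genes, 96 genes of the same pathway were listed in 6 groups, of which 94 were tested. By edgeR without S03, 4 were called lower and 1 higher, beside the 0.791% of all genes, and the median log2 fold change was -0.058. Without WT2 1 was called, where 5 of all 13289 genes were called. With S03 added 0 were called, beside 0.136% of all genes (18 lower and 7 higher at an unadjusted p under 0.05, beside 9.45% and 6.67% of all genes). Leaving out S04 or S05 leaves 1 ASGR1+/- library, too few for a count of calls to tell whether these 5 rested on both. DESeq2 called 15 lower and 5 higher without S03, beside 6.3% and 3.26% of all genes, and 6 lower and 2 higher with it, beside 3.91% and 1.73%.

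Desaturation, elongation and esterification, steps that use or modify fatty acids once made, held 3 of the 5 calls, with 11 of 13 log2 fold changes negative and a median of -0.66. FADS2, a desaturase of polyunsaturated fatty acids, was at 5.1 TPM in S04 and 5.82 in S05, against 166, 79.2 and 161 in WT and 26.9 in S03 (log2 fold change -4.74, adjusted p = 0.0149, edgeR). DGAT2, which completes triglyceride synthesis, was at 9.59 and 8.99 TPM against 140, 122 and 62 (log2 fold change -3.60, adjusted p = 0.0149), and S03 at 77.4 lay within the WT range. ELOVL6, which lengthens palmitate, was at 4.99 and 7.1 TPM against 53.7, 85.8 and 36 (log2 fold change -3.36, adjusted p = 0.031), with 80.2 in S03. SCD, the desaturase that makes oleate, was at 10.5 and 27 TPM against 19.5, 5.25 and 53.1, and its log2 fold change of -0.66 had a standard error of 0.90 (adjusted p = 0.715). ELOVL1 had the largest positive value of the group (0.79, adjusted p = 0.0978). Each of the 3 genes called had a larger fold change in size than any of the 10 lipogenesis genes.

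Glucose entry and targets of ChREBP in rodents held the other 2 calls, with 10 of 13 log2 fold changes negative and a median of -0.46. KHK, the first enzyme of fructose use, was at 30.1 TPM in S04, 23.4 in S05 and 67.4 in S03, all under the WT values of 130, 184 and 123 (log2 fold change -2.49, adjusted p = 0.0287, edgeR). ARRDC4, an arrestin-domain protein, was at 63.9 and 40.8 TPM against 18.2, 12.1 and 14.1 (log2 fold change 1.75, adjusted p = 0.0463), with S03 at 16.3. TXNIP, of the same protein family and likewise a ChREBP target, had the opposite sign (-1.18, adjusted p = 0.0679; DESeq2 adjusted p = 0.00028). PKLR, liver pyruvate kinase, was at 28.2 and 29.5 TPM, with 20.6 in S03, below the WT values of 40.2, 43.7 and 54.3 (log2 fold change -0.80, adjusted p = 0.153).

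**Figure D5:**
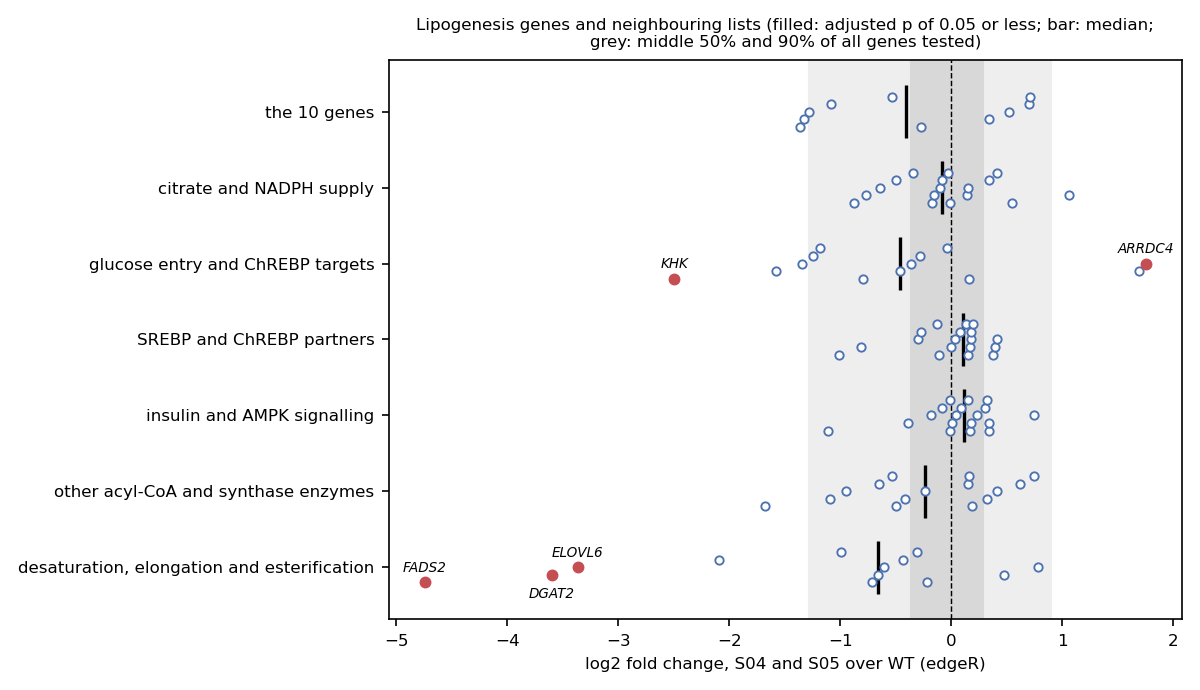
Log2 fold change (S04 and S05 relative to WT) for the 10 genes and for 6 lists of the same pathway, 1 point per gene, filled where the edgeR adjusted p was 0.05 or less, with a bar at the median of each list and grey bands for the middle 50% and 90% of all genes tested. The filled points are FADS2, DGAT2, ELOVL6 and KHK on the left and ARRDC4 on the right, and none is among the 10 genes.

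No gene was called by edgeR in the remaining 4 lists, where 10 of 68 were lower and 4 higher at an unadjusted p under 0.05 (background 12% and 8.89%) and DESeq2 called 6 lower and 3 higher (background 6.3% and 3.26%). These shares are near the background. In the supply of citrate and NADPH (17 genes, median log2 fold change -0.079), PGD of the pentose phosphate pathway had a value of 0.14 (adjusted p = 0.69, edgeR). The largest values there were 1.06 for MDH1, cytosolic malate dehydrogenase (adjusted p = 0.0613), and -0.87 for PC, pyruvate carboxylase (adjusted p = 0.289). Partners of SREBP and ChREBP (18 genes, median 0.11) included SREBF2 (0.37), SCAP (0.17), INSIG1 (-0.30), MLX (-0.0015) and NR1H3 (0.20), with adjusted p from 0.409 to 0.997, and ran from -1.01 for INSIG2 to 0.41 for MBTPS2. MLX, which pairs with ChREBP to bind DNA, was at 49.2 and 51.6 TPM against 48.6, 54.2 and 39.4. In insulin and AMPK signalling (18 genes, median 0.12) the ends were -1.11 for PRKAG2, an AMPK subunit, and 0.75 for IRS2, an insulin receptor substrate, with adjusted p of 0.119 and 0.073. Other acyl-CoA and synthase enzymes (15 genes tested, median -0.23) ran from -1.68 for ACSL1, the main acyl-CoA synthetase of liver (adjusted p = 0.0696), to 0.74 for MCAT of mitochondrial fatty acid synthesis (adjusted p = 0.112). MID1IP1, a partner of THRSP that activates the acetyl-CoA carboxylases, had a value of 0.62 (adjusted p = 0.284).

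Adipocyte markers were summed as well. Of the 12 listed, 11 were found, and they summed to 14.8 and 24.1 TPM in S04 and S05, 54.1 in S03 and 15.5 to 34.4 in WT, led by CIDEC in every library. ADIPOQ, which defines adipocytes, was at 0 in all libraries but WT1 (0.13 TPM), and ADRB3 did not exceed 0.09 TPM. LPL was between 0 and 0.18 TPM. Other markers were detected. FABP4, a fatty acid binding protein, was at 6.61 TPM in S03, 2.41 in S04 and 7.38 in S05, above the WT values of 1.2, 1.82 and 0.69. RBP7 went the other way, at 0.31, 0.31 and 0.32 TPM against 0.98, 0.63 and 0.88 in WT. Over all genes, 17.4% lay above and 6.49% below WT in every ASGR1+/- liver by TPM. CIDEA, LIPE and PPARG overlapped between the groups and did not exceed 0.92 TPM. The lipid droplet proteins PLIN1 and PLIN4 reached 5.63 and 3.12 TPM in S03, and 0.41 to 3 and 0.96 to 2.79 in the others. The part of these markers in the levels of the 10 genes was not tested.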

How the data were processed

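The authors sequenced liver RNA of 6 pigs (BGISEQ platform). They cleaned reads with SOAPnuke and aligned them with HISAT and Bowtie2. HISAT2 2.0.4 and the build Sscrofa11.1 come from the submitters' processing notes, and the counting tool is not given in the sources used here. The deposited estimated counts are not normalized, and 12% of them were not whole, so they were rounded. The deposited TPM were scaled by the authors per gene length and to a fixed sum per library. Deposited FPKM values and group averages were not used.

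Groups follow the genotype in the labels. Counts were tested with edgeR 4.0.16 (R 4.3.3; quasi-likelihood test, TMM, filterByExpr with a minimum count of 10, Benjamini-Hochberg adjustment over all genes tested), with standard errors derived from each F statistic. Called means an adjusted p of 0.05 or less. Alternatives were RLE factors, library totals, no filter, DESeq2 1.42.0, limma 3.58.1 on log2(TPM + 1) and log2(TPM + 0.1), and each library left out (a lone ASGR1+/- library was then assumed to vary like the WT ones). The edgeR script was tested on simulated data. The members, lists and tests were chosen with earlier results of these data known. Named were all 10 members, a preset set of pathway genes, every listed gene called, and the largest rise and fall of each list. Some genes of the preset set are not reported here.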

Additional observations from a re-analysis of the deposited data

Results flagged for a closer look

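S03 entered no main comparison, and its level was above every WT liver for 3 of the 10 genes, ACLY at 24.33 TPM (WT maximum 17.36), ME1 at 1.43 TPM (WT maximum 1.17) and ACACB at 0.69 TPM (WT maximum 0.63). The share of all genes for which S03 exceeded every WT liver was not computed, so 3 of 10 cannot be read as more than usual. For ACLY and ACACB, S04 and S05 were above WT too, and for ME1 they were not. The ME1 and ACACB values stand on 52 and 63 counts. With 3 libraries in each group, single livers far from their group could not be flagged by a rule.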

How the results depend on the processing

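Of the 10 genes, 0 were called by edgeR under any scaling or filter tried, and 0 by limma, in either comparison. DESeq2 called 1 without S03 and 2 with it. In S04 and S05 against WT, leaving out 1 WT library gave 0 to 1 calls by edgeR, the 1 being SLC25A1 without WT3. DESeq2 gave 0 to 3, namely SLC25A1, ACACA and FASN lower without WT1, none without WT2 and SLC25A1 lower without WT3. Without WT1, WT2 and WT3 in turn, edgeR called 53, 5 and 115 of all genes and DESeq2 887, 635 and 1063. The number of calls among the 10 is to be read beside these. Without S04 or S05 only 1 ASGR1+/- library remained, and calls there are not counted. Pathway genes called by edgeR numbered 5, against 20 by DESeq2, 0 with all 6 libraries and 1 to 6 with 1 WT library left out. The signs of 8 of the 10 fold changes held in S04 and S05 against WT under every alternative. With 1 library left out THRSP ran from -1.91 to 0.65 by edgeR and turned positive without WT3 (0.65 also by DESeq2), and SREBF1 ran from -0.83 to 1.43 and turned negative without S05 (-0.83 also by DESeq2), and the cause was not tested. DESeq2 with a library left out was added after seeing the data. Over all genes, DESeq2 called 1307 against 106 for edgeR without S03, and 815 against 18 with it. Scaling by library totals moved the median log2 fold change of all genes to 0.11 without S03 and 0.18 with it, so that fold changes then read higher by about that shift. No paired analysis was possible because the labels (S03 to S05, WT1 to WT3) give no replicate numbers that pair animals across the groups. Depth limited ME1 and, together with the spread between livers, ACACB. For the other genes the spread between 5 or 6 livers was the limit, also for THRSP, although its value in S03 stood on 10 counts.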

Other observations

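INSIG1, the sterol-sensitive anchor of SREBP, was at 156 TPM in S03 against 38.5 to 74.9 in the other 5 livers. SREBF2 was also highest in S03, at 41.9 TPM, with S05 near it at 37.4. SREBF1 was lowest in S03, at 7.96 TPM, with S04 near it at 8.33. No test was made on this pattern, which was chosen after the values were seen.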
